A study of Mus musculus with 2 samples.

Results

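The small proline-rich protein genes Sprr1a, Sprr2a1, Sprr2a2, Sprr2a3 and Sprr2f were followed through 2 sections of mouse intestine. They were chosen by symbol, 5 of the 54658 gene symbols in the deposited tables, and each holds at least 200 counts over both sections. The study asked how the loss of Dpf2, a subunit of the BAF chromatin remodelling complex, bears on radiation injury of the intestine. One section came from a wild-type mouse and 1 from a mouse labelled DPF2 KO, both after 10 Gy of X-rays, and these are called the WT and the KO section after their labels. Strain, age, sex, the stretch of gut, the time after irradiation and the part of Dpf2 deleted, with the cells in which it was deleted, were not stated in what was used here, and there is no unirradiated section. Fresh frozen tissue was cut at 10 µm, and its RNA was captured by position on a barcoded array. A value below is a count of a gene in 1 or more barcodes, and CPM is that count per 1000000 counts of the same barcodes.

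Small proline-rich proteins are short, proline-rich substrates of transglutaminases. In squamous epithelia such as epidermis they are cross-linked with involucrin and loricrin into the cornified envelope beneath the cell membrane. Their genes sit side by side in the epidermal differentiation complex. In the gut, a simple epithelium without a cornified envelope, Sprr2a is known as a secreted bactericidal protein of the epithelium, and Sprr1a and other members are known as genes induced by tissue damage.

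The 17 Sprr symbols of the tables lie on chromosome 3 between 92215835 and 92500493 (GRCm38.p6, RefSeq). Sprr2a1 (ENSMUSG00000078664, 92215835 to 92222491), Sprr2a2 (ENSMUSG00000068893, 92250647 to 92257304) and Sprr2a3 (ENSMUSG00000074445, 92285304 to 92289264) stand next to each other at one end. Sprr2f (ENSMUSG00000050635, 92365187 to 92366442) lies further along, and Sprr1a (ENSMUSG00000050359, 92483954 to 92485881) lies near the other end. All 5 are protein coding. Sprr2a1, Sprr2a2 and Sprr2a3 are near-identical copies, so how reads were divided among them depends on the authors' counting, and their sum is given beside each of them.

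Promoter windows from 250 bases before to 50 bases after the annotated start were available from RefSeq (GRCm38.p6) for all 5 members. Of these and those of the relatives, 4 windows are printed, chosen by the direction of their genes. They are those of the members lower in the KO section (Sprr1a and Sprr2f), of a higher member (Sprr2a2) and of the relative Sprr2b, also higher. A link between the sequences below and the direction was not tested. They cover chr3:92485832-92486131 on the minus strand and chr3:92364937-92365236, chr3:92250397-92250696 and chr3:92316455-92316754 on the plus strand. Each runs 5′ to 3′ along its gene, and capitals mark matches to TGANTCA, the sequence bound by AP-1 factors, and to TATAAA, the TATA box.
Sprr1a: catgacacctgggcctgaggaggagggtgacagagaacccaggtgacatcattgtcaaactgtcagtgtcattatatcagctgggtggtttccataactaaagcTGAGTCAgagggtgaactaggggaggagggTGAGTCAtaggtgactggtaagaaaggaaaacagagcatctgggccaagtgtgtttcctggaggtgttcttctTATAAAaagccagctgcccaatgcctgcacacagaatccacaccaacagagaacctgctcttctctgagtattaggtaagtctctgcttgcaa
Sprr2f: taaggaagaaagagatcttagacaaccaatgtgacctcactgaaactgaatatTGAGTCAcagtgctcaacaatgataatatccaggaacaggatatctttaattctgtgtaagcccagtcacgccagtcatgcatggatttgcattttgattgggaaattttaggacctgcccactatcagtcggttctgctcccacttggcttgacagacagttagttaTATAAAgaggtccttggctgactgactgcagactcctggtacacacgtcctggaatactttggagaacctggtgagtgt
Sprr2b: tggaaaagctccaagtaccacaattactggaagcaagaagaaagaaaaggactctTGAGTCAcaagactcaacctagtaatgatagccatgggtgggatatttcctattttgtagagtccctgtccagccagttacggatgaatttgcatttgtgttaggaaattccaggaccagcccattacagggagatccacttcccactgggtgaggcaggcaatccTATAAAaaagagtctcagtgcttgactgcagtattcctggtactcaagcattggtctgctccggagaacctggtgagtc
Sprr2a2: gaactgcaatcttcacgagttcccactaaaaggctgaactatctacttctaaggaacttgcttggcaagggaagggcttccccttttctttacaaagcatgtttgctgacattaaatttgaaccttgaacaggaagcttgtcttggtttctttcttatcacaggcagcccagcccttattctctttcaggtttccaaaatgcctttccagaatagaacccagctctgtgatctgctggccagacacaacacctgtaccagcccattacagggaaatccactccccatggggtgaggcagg

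The Sprr1a window holds 2 matches to TGANTCA, at -146 and -116 from the start, and 1 to TATAAA at -43. Sprr2f holds 1 TGANTCA at -197 and 1 TATAAA at -29, Sprr2b holds the same pair at -195 and -29, and the relative Sprr2h holds it at -198 and -29. Neither sequence occurs in the windows of Sprr2a1, Sprr2a2 or Sprr2a3. Both strands were searched, and 7.81% of 32851 promoter windows hold TGANTCA while 13.6% hold TATAAA. The windows of Sprr2a1 and Sprr2a2 are the same in all 300 bases, and Sprr2a3 shares a run of 272 bases with them. Of the measured genes that hold both letter patterns, Sprr1a, Sprr2f and Sprr2h were lower and Sprr2b higher in the KO section. The longest run shared by Sprr2a1 and Sprr2b is 18 bases, and it starts 80 bases before the annotated start of Sprr2b but after that of Sprr2a1, so the windows of these genes do not cover matching stretches. Further sequences were counted on both strands. CACCC, a core of Krüppel-like factor sites, occurs 4 times in Sprr1a and 1 time in Sprr2a1 and in Sprr2a2 (57.5% of windows), TTCNNNGAA, a STAT pattern, occurs 1 time in Sprr2a3 (8.30%), and GGAATG (14.7%) and TTGCNNCAA (2.08%) occur in none of the 5.

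The WT section holds 50970 barcodes and 39824941 counts, and the KO section holds 88056 and 89754886, so its total is 2.25 times as large. The sections share 45557 barcode names, each at the same position. With 1 section per genotype no difference between genotypes could be tested, and intervals cover counting error only. Dpf2 stood at 23.6 CPM in the former and 26.0 CPM in the latter, which gives no check of the knockout label, since the deleted part is not given. Tissue make-up differed widely by summed marker lists. Of 20709 genes with at least 20 counts, the minimum for the lists, 15.4% were at least 2-fold higher in the KO section and 23.8% at least 2-fold lower, with a median log2 ratio of -0.25. The enterocyte list, the absorptive cells, stood at 423 and 30917 CPM (14 of 14 genes at least 2-fold higher in the KO section), the villus tip list at 309 and 10916 CPM (8 of 8 higher), the Paneth cell list at 96038 and 5863 CPM (11 of 11 lower), the list of injury epithelium genes at 4804 and 559 CPM (19 of 20 lower) and the neutrophil list at 567 and 24.2 CPM (10 of 11 lower). The pan-epithelial list stood at 6714 and 8743 CPM. What part these differences have in the results below was not tested, and fewer cells of a type and less RNA per cell cannot be told apart.

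Sprr1a was at 32.8 CPM (95% interval 31.0 to 34.6; 1306 counts) in the WT section and at 1.70 CPM (1.45 to 2.0; 153 counts) in the KO section. It was 19.2-fold lower there, with an interval of 16.3 to 22.9. Its level in the KO section is not read as expression, as given below. Sprr2f was at 6.15 CPM (5.41 to 6.97; 245 counts) and 0.0334 CPM (3 counts), a log2 ratio of -7.52 with an interval of -9.81 to -5.96. Most counts of both genes thus came from the WT section, although it is the shallower of the 2.

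Each of the near-identical copies went the other way. Sprr2a1 was at 1179 CPM in the WT section and 2364 CPM in the KO section (log2 ratio 1.0). Sprr2a2 was at 3076 and 6299 CPM (log2 ratio 1.03), and Sprr2a3 at 1306 and 2466 CPM (0.92). Summed, the 3 copies made up 0.556% of all counts in the WT section and 1.11% in the KO section, which is a log2 ratio of 1.0 with a counting interval of 0.99 to 1.01. Sprr2a2 alone was the 34th gene by counts in the former and the 10th in the latter.

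Of the 5 members, 2 (Sprr2a1 and Sprr2a2) were at least 2-fold higher in the KO section, 2 (Sprr1a and Sprr2f) at least 2-fold lower, and Sprr2a3 was within 2-fold. Among the 14516 genes with at least 200 counts, 15.7% were at least 2-fold higher and 19.7% at least 2-fold lower, and the median log2 ratio was -0.18. A ratio of at least 16-fold lower, which Sprr1a and Sprr2f passed, was reached by 1.18%. The ratios of the 3 copies lie at the 2-fold line: scaled by the median of ratios over genes, which puts the median gene at 0.00, their sum came to 1.18, and without Paneth list and Defa genes in the total, which are 15.4% and 0.776% of counts, it came to 0.77. Among barcodes at or above the median pan-epithelial share of 0.772% it was 0.74. The direction was the same in each.

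The 4 parts of a section differed less among themselves than the sections did. With each section split into 4 parts of about equal barcode number, Sprr1a ran from 30.8 to 34.0 CPM in the parts of the WT section and from 1.27 to 2.11 CPM in those of the KO section. The summed Sprr2a copies ran from 4978 to 6115 CPM and from 9279 to 12462 CPM. Sprr2f ran from 4.8 to 8.20 CPM and from 0 to 0.0960 CPM, with no count in 2 of the 4 parts of the KO section. The 4 parts of one section did not overlap those of the other for any of these, but parts of a section are not replicates. How many of all genes show the same was not counted, so this is not read as particular to these genes.

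Smaller tiles showed how far the levels spread. Over 65 tiles of the WT section Sprr1a had a lowest, median and highest level of 5.21, 28.8 and 110 CPM, and over 92 tiles of the KO section 0, 1.22 and 9.16 CPM. All but 4 of the former, 61 of 65, lay above the highest of the latter. For the summed Sprr2a copies the tiles ran from 786 through 5518 to 8207 CPM and from 2708 through 10100 to 26793 CPM. Here the sections overlapped, and 58 of the 92 tiles of the KO section lay above the highest tile of the WT section. Sprr2f was at 0 in 15 of 65 tiles and in 90 of 92. Such tile counts were not made for all genes.

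**Figure D1:**
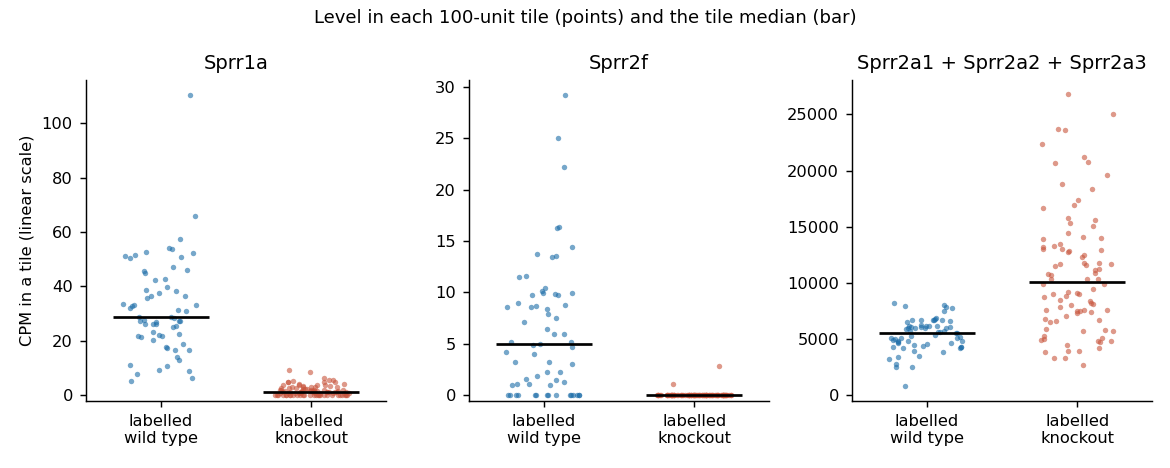
Level of Sprr1a, Sprr2f and the sum of Sprr2a1, Sprr2a2 and Sprr2a3 in each tile of side 100 position units (vertical axes, CPM on linear scales; points, tiles; bars, tile medians), by section. Tile medians of the summed copies are 5518 CPM in the WT section and 10100 CPM in the KO section, while those of Sprr1a are 28.8 and 1.22 CPM.

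The other 12 Sprr genes were scarce. Sprr1b, Sprr2i, Sprr2k, Sprr3 and Sprr4 had no count in either section, which, with 3 counts taken as the limit of a count of 0, allows up to 0.0753 and 0.0334 CPM, and Sprr2c-ps, Sprr2d, Sprr2e and Sprr2j-ps had at most 3 counts in a section. Sprr2h, which lies beyond Sprr2f on the chromosome, had 116 counts in the WT section and 2 in the KO section (log2 ratio -7.03, interval -10.1 to -5.14). Sprr2g, a transcribed pseudogene between these, had 25 counts and 0, at least 18.8-fold lower against a floor of 3 counts in the KO section, while the interval that also covers the error of the WT count starts at 14.2-fold. Sprr2b, next to the Sprr2a copies, had 23 and 130 counts (log2 ratio 1.33, interval 0.68 to 2.03). Along the chromosome, the 3 Sprr2a copies and Sprr2b were thus higher in the KO section, and Sprr2f, Sprr2g, Sprr2h and Sprr1a were lower. Whether reads of the abundant Sprr2a copies were counted to Sprr2b was not tested.

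By square, the summed Sprr2a copies showed curved bands of high and low level in both sections. Over 1305 squares of side 20 in the WT section the lowest, median and highest level was 458, 5324 and 24171 CPM, and over 2100 squares of the KO section it was 2162, 9985 and 65433 CPM. A level above 20000 CPM occurred in 1 square of the former and in 239 of the latter.

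**Figure D2:**
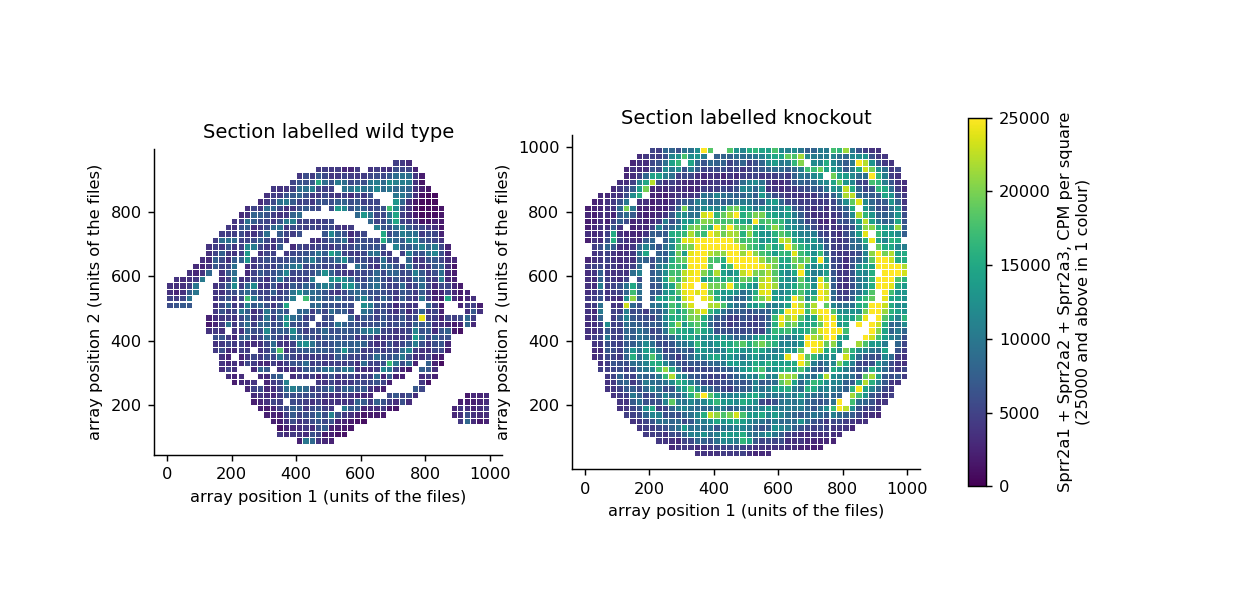
Summed level of Sprr2a1, Sprr2a2 and Sprr2a3 in each square of side 20 position units (colour, CPM, with 25000 and above in 1 colour), at its array position in units of the files (both axes), for the WT section (left) and the KO section (right). Curved bands of higher level run through both sections, and 239 squares on the right but 1 on the left exceed 20000 CPM.

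To see which tissue the genes were counted in, squares rich in the genes of a marker list were set against the rest of the section, with no Sprr gene in any list. A marker-rich square holds several cells and is a range of a score, not a cell type. There were 12 usable compartments of 22 lists in the WT section, each of 65 squares, and 15 in the KO section, each of 105. The enterocyte, stem cell, adipocyte and neuron and glia lists had too few counts per square in the WT section, and the neutrophil list in the KO section. The squamous list gave no compartment in either, though it summed to 232 and 203 CPM. Of its genes Krt5 (0.502 and 1.43 CPM) and Trp63 (0.402 and 0.412 CPM) were near 0. Sfn and Col17a1 stood higher in both sections, and Dsg3 in the WT section, as given below.

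The summed Sprr2a copies were highest in squares rich in villus tip, pan-epithelial or injury epithelium genes in both sections, with goblet cell squares beside them in the KO section. In the WT section they stood at 10155 CPM in squares rich in injury epithelium genes (log2 ratio to the rest 0.91), 9710 CPM in pan-epithelial squares (0.86) and 9684 CPM in villus tip squares (0.86). The last 2 had overlapping counting intervals. Endothelial (7357 CPM), plasma cell (7251 CPM), neutrophil (6277 CPM) and proliferation squares (5983 CPM) came next. The lowest levels were in macrophage (4600 CPM), goblet cell (4138 CPM), stroma (3672 CPM), Paneth cell (3623 CPM, log2 ratio -0.66) and smooth muscle squares (2448 CPM, -1.22). Stroma and Paneth cell squares had overlapping intervals. With the genes of a list weighted equally, goblet cell squares of the WT section turned to 0.69, and the small ratios of neutrophil (0.18), macrophage (-0.28) and plasma cell squares (0.40) changed sign under at least 1 other choice of squares.

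In the KO section villus tip squares were first, at 23801 CPM (log2 ratio to the rest 1.19), before pan-epithelial (20461 CPM, 0.95), goblet cell (19924 CPM, 0.91) and injury epithelium squares (16745 CPM, 0.62). Enterocyte squares stood at 11932 CPM, near the rest of the section (0.11), as did plasma cell squares (11938 CPM). Below the rest were neuron and glia (7930 CPM), endothelial (7921 CPM), macrophage (7430 CPM), adipocyte (6804 CPM), Paneth cell (6425 CPM, -0.82), stroma (6303 CPM), proliferation (5867 CPM, -0.96) and smooth muscle squares (5454 CPM, -1.07). Squares rich in stem cell genes were last (4732 CPM, -1.28), and 33 of these 105 were also Paneth-rich. The highest level was thus in villus tip squares, and the lowest were in stem cell, smooth muscle and proliferation squares.

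Read against all genes, the villus tip result of the KO section was uncommon. All 3 copies were at least 2-fold higher in those squares (log2 ratios 1.57, 1.08 and 1.04 for Sprr2a1, Sprr2a2 and Sprr2a3), against 2.33% of 13152 genes. The copies are near-identical and correlated at 0.97 to 0.99 over squares of that section, so they are not separate results. In villus tip squares of the WT section 2 members, Sprr1a and Sprr2a1 (1.06), passed 2-fold, against 1.93% of 11671 genes. In smooth muscle squares of that section Sprr2a1, Sprr2a2, Sprr2a3 and Sprr2f, with 1 count, were at least 2-fold lower, against 11.8%, and in those of the KO section Sprr2a1 (-1.34) and Sprr2a3 (-1.1) were, against 2.32%, while Sprr2a2 was at -0.96.

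Sprr1a in the WT section was highest in injury epithelium squares, at 120 CPM (152 counts, interval 102 to 141), against 30.01 CPM in the rest (log2 ratio 2.0). Villus tip (71.5 CPM), pan-epithelial (70.6 CPM) and plasma cell squares (62.5 CPM) followed, with overlapping intervals. Paneth cell squares stood at 29.1 CPM, proliferation squares at 27.6 CPM, stroma at 21.7 CPM and smooth muscle at 20.4 CPM (log2 ratio -0.71, but 1.34 with 1 threshold for both sections). Sprr2f was also highest in injury epithelium squares, at 34.7 CPM (44 of its counts, interval 25.2 to 46.6; log2 ratio 2.73), and unlike Sprr1a it showed no higher level in villus tip squares, at 4.90 CPM (10 counts, interval 2.35 to 9.0) against 6.25 CPM in the rest. Paneth cell squares held 3 counts of Sprr2f, and smooth muscle and stroma squares 1 each. In the injury squares 3 of the 5 members were at least 2-fold higher (Sprr1a, Sprr2f and Sprr2a1 at a log2 ratio of 1.04), against 3.05% of 11671 genes. Only 8 of the 65 injury squares were also villus tip squares. In the KO section the 153 counts of Sprr1a left 14 in injury epithelium squares (3.97 CPM) and 13 in villus tip squares (2.94 CPM), and the 3 counts of Sprr2f describe no pattern.

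**Figure D3:**
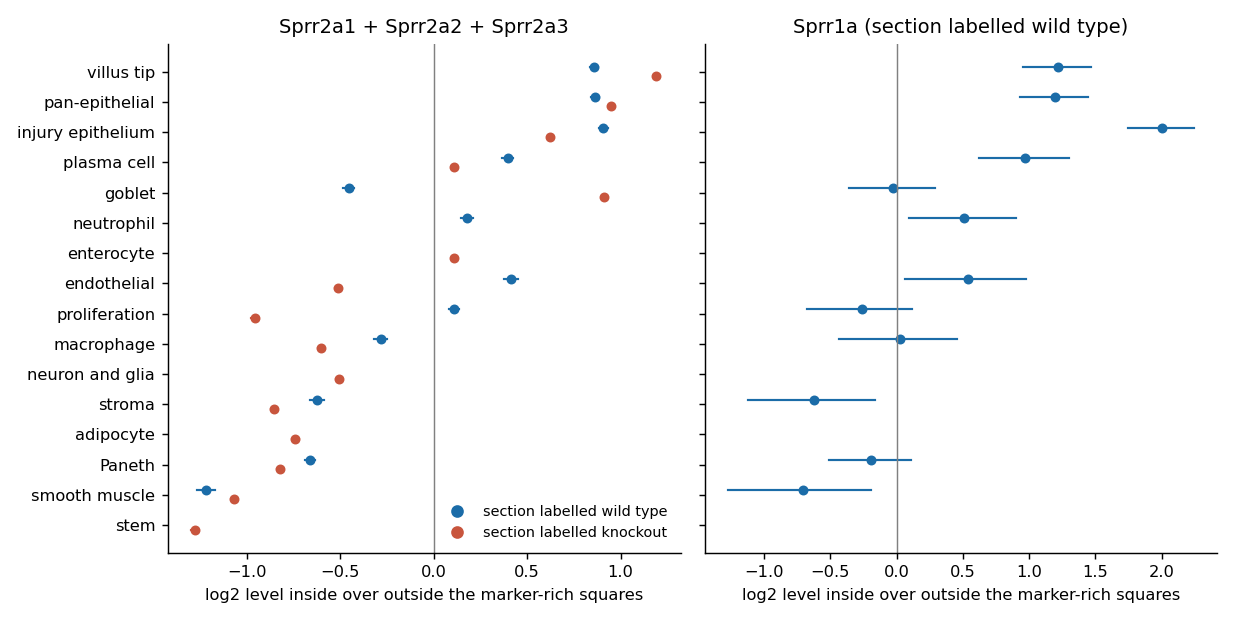
Log2 ratio of the level inside marker-rich squares to the level outside them (horizontal axis) for each marker list (vertical axis), for the summed Sprr2a copies in both sections (left) and for Sprr1a in the WT section (right); bars are 95% counting intervals. Villus tip, pan-epithelial and injury epithelium squares lie right of 0 for both, goblet cell squares lie on opposite sides in the 2 sections for the Sprr2a copies (-0.45 and 0.91), and smooth muscle lies at -1.22 and -1.07.

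Compared within like squares of the 2 sections, Sprr1a and Sprr2a2 kept the direction they had over the whole section in every shared compartment, and the other 2 copies did not. The summed Sprr2a copies were higher in the KO section in 10 of 11 shared compartments, with a median log2 ratio of 0.78. The ratio was 2.27 in goblet cell squares, 1.30 at the villus tip, 1.16 in smooth muscle, 0.83 in Paneth cell, 0.72 in injury epithelium and 0.11 in endothelial squares. In proliferation squares it was -0.03, with an interval that holds 0 (5983 and 5867 CPM), and the copies differed there. Sprr2a1 was lower in the KO section (-0.38, interval -0.45 to -0.31), as was Sprr2a3 (-0.17, -0.23 to -0.10), while Sprr2a2 was higher (0.14, 0.10 to 0.18). Sprr2a3 was also at -0.02 in endothelial squares, with an interval that holds 0. Sprr1a was lower in all 11, with log2 ratios of -4.92 in injury epithelium and -4.60 at the villus tip. The ratios ran from -3.38 in goblet cell squares (86 and 15 counts, interval -4.28 to -2.58) to -6.09 in endothelial squares (43 and 3 counts, -8.43 to -4.45). The KO level of Sprr1a is not read as expression, as given below, so differences among these ratios are not read as differences between compartments. The squares compared are not equal in make-up: injury epithelium squares held 9060 and 1268 CPM of their own list, villus tip squares 2902 and 42411 CPM, and Paneth cell squares 219396 and 24721 CPM. Of the 65 goblet cell squares of the WT section 22 were Paneth-rich, while 31 of the 105 in the KO section were villus tip squares. Smooth muscle squares, taken below as background for the Sprr2a copies, differed between the sections by a log2 ratio of 1.16, beside 1.0 over the whole sections. The part of background in the other ratios was not tested.

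Levels were also followed by distance from these squares. The nearest squares, under 20 units, are the marker-rich squares themselves, so their values repeat those above, and only the farther ones add to them. In the WT section their sum was at 2448 CPM in the smooth muscle squares, 3851 CPM at 20 to 40, 5243 CPM at 40 to 60, 5631 CPM at 60 to 80, 6055 CPM at 80 to 120 and 6110 CPM at 120 or more. The levels of the KO section were 5454, 7636, 10643, 13173, 13630 and 11853 CPM over the same distances. From 20 units outwards both thus still climbed and then levelled off, the latter with a lower last value. From Paneth cell squares the sum went from 4713 CPM at 20 to 40 units to 6255 CPM at 120 or more, and in the KO section from 9203 to 13195 CPM.

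Sprr2f in the WT section climbed too, from 0.659 CPM (1 count) in the muscle squares to 8.89 CPM (188 counts) at 120 units or more, and from 0.929 CPM (3 counts) to 10.4 CPM (168 counts) away from Paneth cell squares. Sprr1a stayed between 29.1 and 35.6 CPM at every distance from Paneth cell squares, with overlapping intervals, and was at 20.4 CPM nearest the muscle and 36.0 CPM farthest from it. The unit of the positions is not stated in the sources used here.

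**Figure D4:**
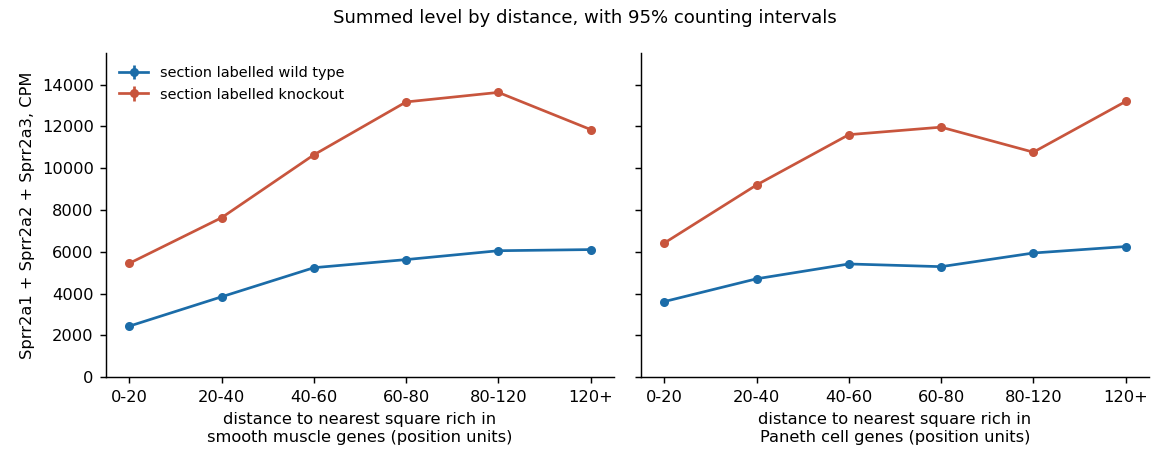
Summed level of Sprr2a1, Sprr2a2 and Sprr2a3 (vertical axis, CPM) by distance to the nearest square rich in smooth muscle (left) or Paneth cell genes (right) (horizontal axis, position units), by section; bars are 95% counting intervals, mostly smaller than the points. Levels go from 2448 to 6110 CPM and from 5454 to 11853 CPM between the nearest and farthest squares from muscle.

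The copies were found in most barcodes, while Sprr1a and Sprr2f were in few. Of barcodes thinned to 300 counts, 74.9% in the WT section and 88.5% in the KO section held a count of a Sprr2a copy (91.3% and 98.3% unthinned). In smooth muscle squares, a tissue that should lack these epithelial genes, it was 49.4% and 74.9% of thinned barcodes (median depths of 717.5 and 1177 counts), and in villus tip squares 89.5% and 99.2% (863 and 1270 counts). A share at or below that of the muscle squares is background and is not read as expression. In the KO section this holds for adipocyte squares, at 74.5% of thinned barcodes. Stroma squares there (76.5%, interval 75.1 to 77.9) overlapped the interval of muscle squares (73.5 to 76.3). So did Paneth cell squares (77.0%, 75.6 to 78.3). At 600 counts the shares were 90.4% and 91.3%, beside 90.9% in muscle. By this share neither was told apart from background, although both levels in CPM were above that of muscle. Stem cell squares of that section, lower in level than its muscle squares, are not read as expression either. A barcode held at most 76 counts of the copies in the WT section and 235 in the KO section. Sprr1a was in 2.32% of barcodes (1183) and 0.174% (153), and after thinning in 1.01% and 0.0389%. The thinned share in smooth muscle squares was 0.503% and 0.0779%, the latter with an interval of 0.0161 to 0.228. Thinned to 600 counts, the KO section had 0.112% of all barcodes and 0.0591% of muscle barcodes (interval 0.00716 to 0.213). In the KO section the share of Sprr1a was thus not told apart from that of muscle and is not read as expression. Sprr2f was in 228 barcodes and 3.

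Few barcodes held both Sprr1a and Sprr2f, each of which is sparse, but the shares lay above those of all barcodes. In the WT section 13 barcodes held both, 5.70% of those with Sprr2f and 1.1% of those with Sprr1a, where 2.32% of all barcodes held Sprr1a and 0.447% held Sprr2f. Median depths were 796 counts for barcodes with Sprr2f, 869 for those with Sprr1a and 721 for all. The level of the summed Sprr2a copies was 10487 CPM in barcodes with a Sprr2f count and 8258 CPM in barcodes with a Sprr1a count, against 5561 CPM over the section.

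Sprr2f was the most unevenly spread of the members. The richest 5% of squares for the gene held 52.9% of its counts in the WT section, against 22.8% for Sprr1a and 8.54% to 11.2% for the Sprr2a copies. Rare genes gather in few squares by counting alone, so the variance in excess of counting, relative to the squared mean, was taken as well. It was 3.64 for Sprr2f and 1.0 for Sprr1a, against 0.159 for the median gene. The 3 Sprr2a copies were at 0.160 to 0.278 in that section and at 0.316 to 0.565 in the KO section, where the median gene was at 0.141.

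Counts were divided among the Sprr2a copies in nearly the same way in both sections. Sprr2a1 took 21.2% in each, Sprr2a2 55.3% and 56.6%, and Sprr2a3 23.5% and 22.2%. Within a section the division moved with position by more than its counting interval. In the KO section Sprr2a1 took 16.5% in stem cell squares, 17.2% in Paneth cell squares, 17.6% in smooth muscle squares, 25.3% in enterocyte squares and 26.9% in villus tip squares (26.6 to 27.1). Sprr2a2 went the other way, from 62.6% in stem cell squares to 52.9% at the villus tip. Stem cell and smooth muscle squares are at or below background, so their shares describe the division of background counts. Paneth cell squares of this section were not told apart from background by their share of barcodes. In the WT section the share of Sprr2a1 was 18.2% in smooth muscle squares (17.0 to 19.5), 20.4% in Paneth cell squares, 24.0% at the villus tip and 24.96% in pan-epithelial squares (24.4 to 25.6). How reads that match more than 1 copy were counted was not stated, and its part in these shares was not tested.

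**Figure D5:**
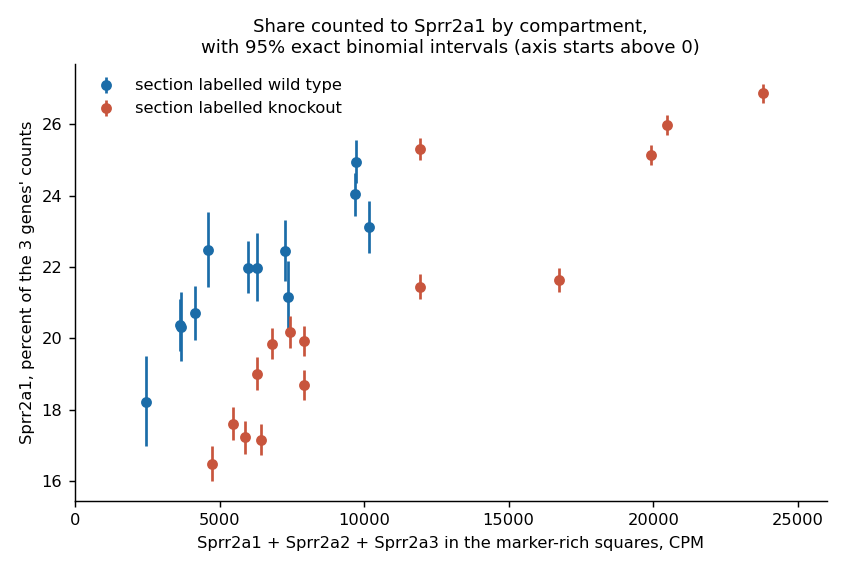
Percent of the counts of Sprr2a1, Sprr2a2 and Sprr2a3 that fell to Sprr2a1 (vertical axis, starting above 0, with 95% exact binomial intervals) against their summed level in CPM (horizontal axis) for each compartment of each section. The lowest share is 16.5% in stem cell squares and the highest 26.9% in villus tip squares, both in the KO section.

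The genes whose level over squares was most like that of the Sprr2a copies differed between the sections. Over 355 squares of side 40 in the WT section the highest correlations among 2778 genes were with Anxa2, a membrane-binding annexin (r = 0.85), S100a6, a calcium-binding protein (0.84), Cdh17, the intestinal cadherin (0.84), Krt19, an epithelial keratin (0.83), and Lgals4, a gut galectin (0.81). Over 543 squares of the KO section, among 5611 genes, they were with Clca4b, a chloride channel accessory protein (0.91), Ceacam1, an adhesion receptor (0.88), Dusp6, a phosphatase of ERK (0.88), Serpinb1a, a protease inhibitor (0.87), and Clca4a (0.86), which is in the villus tip list. The copies correlated with one another at 0.92 to 0.95 and at 0.97 to 0.99. Sprr1a, in the WT section, was most like Cldn4, a tight junction claudin that is in the injury epithelium list (0.47), Ahnak (0.40), Krt20, a keratin of mature villus cells in the villus tip list (0.39), Cystm1 (0.39) and F3, tissue factor, also in the injury epithelium list (0.39), and its correlation with the Sprr2a copies was 0.40 to 0.45. These squares share a library and their depth, and the correlations of the sparse Sprr1a are weak. Sprr2f had too few counts for this.

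Most measured genes of other cornified envelope proteins were lower in the KO section. Of 24 listed genes 11 had at least 20 counts, of which 7 were at least 2-fold lower and 2 at least 2-fold higher, against 23.8% and 15.4% of all genes at that minimum, with a median log2 ratio of -1.32 beside -0.25. Their summed level went the other way, from 177 to 292 CPM, of which Cst6 was the largest part in the KO section. Tgm1, a transglutaminase that cross-links Sprr proteins in epidermis, was at 9.19 and 0.212 CPM, and Cnfn, cornifelin, had 64 counts and 1. Tgm2, the widespread tissue transglutaminase, was at 116 and 55.7 CPM. The 2 higher genes were Cst6, a cystatin (6.25 and 206 CPM), and Evpl, envoplakin (3.24 and 10.5 CPM). Ivl and Lor, encoding involucrin and loricrin and named here after their values were seen, had 10 and 30 counts in the WT section and 1 and 27 in the other.

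The S100 genes of the same chromosomal complex were similar, with 8 of 13 at least 2-fold lower and 1 higher, against 23.8% and 15.4% of all genes, and a median of -1.41. S100a8 (201 and 0.724 CPM) and S100a9 (183 and 0.847 CPM), abundant in neutrophils, had the largest ratios. S100a6 was at 3407 and 731 CPM, S100a14 at 87.3 and 16.1 CPM and S100a3 at 1.66 and 0.345 CPM, while S100a10, the partner of annexin A2, was at 796 and 889 CPM. The 1 higher gene was S100a5, with 3 and 28 counts.

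Cytokines and transcription factors taken as possible inducers of Sprr genes were listed too, together with receptors of these cytokines and Socs3. Whether each of them induces Sprr genes was not tested. Of 31 genes 29 were measured, 13 at least 2-fold lower and 2 higher, against 23.8% and 15.4% of all genes, with a median of -0.89. Il1b (123 and 0.713 CPM), Il6 (41.0 and 0.256 CPM), Il11 (162 and 1.93 CPM) and Osm (10.7 and 0.134 CPM), ligands of the interleukin 1 and interleukin 6 families, were lowest relative to the WT section. The 2 higher genes were Klf4 (23.9 and 166 CPM) and Ovol1 (3.67 and 28.4 CPM), both transcription factors of differentiating epithelium. Klf5 was at 557 and 560 CPM and Junb at 577 and 211 CPM. The 7 AP-1 genes of the list, set apart after their values were seen, ran from Fosl1 (41.0 and 1.16 CPM) and Fosb (12.0 and 1.28 CPM) through Fos (245 and 132 CPM) to Jun (54.1 and 57.5 CPM) and Jund (124 and 133 CPM).

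Among 18 antimicrobial genes of the gut, 12 were at least 2-fold lower and 4 at least 2-fold higher, against 23.8% and 15.4% of all genes, with a median of -2.88. The 4 higher were Reg3a, Reg3b (648 and 10628 CPM), Zg16 (177 and 3265 CPM) and Mptx1, and the lower ones included the Paneth cell products Defa24 (36414 and 2722 CPM), Mptx2 (1709 and 35.8 CPM) and Pla2g2a (259 and 6.96 CPM). The share of higher genes is thus near that of all genes. Of the injury epithelium list 19 of 20 genes were at least 2-fold lower, against 23.8% of all genes, with a median of -2.60, among them Ereg (884 and 12.1 CPM), Plaur (123 and 4.35 CPM), Krt23 (306 and 11.6 CPM), Ly6a (1099 and 57.3 CPM) and Krt7 (733 and 152 CPM). Of 14 measured squamous genes 6 were at least 2-fold lower and 2 higher, against 23.8% and 15.4% of all genes, and Dsg3, a desmosomal cadherin, had the largest ratio (34.6 and 0.557 CPM). Krt4 (1.53 and 0.123 CPM) and Krt6a (3.01 and 0.390 CPM) were lower, Krt5 higher, and Sfn (160 and 180 CPM) and Col17a1 (19.3 and 13.6 CPM) within 2-fold.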

How the data were processed

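Gene expression was measured by spatial transcriptomics in 1 intestinal section per genotype. The authors deposited raw whole-number counts for each gene in each barcode, used here unchanged; the extract protocol names BSTMatrix and BSTViewer, and the submitters' processing notes name the build GRCm38. No source used here names the aligner, the rule for reads of near-identical genes or a collapsing of molecular identifiers. Barcode positions and names were used as deposited.

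Counts were summed per section, part, tile or square and expressed per 1000000 (CPM). CPM carry exact Poisson intervals, ratios exact conditional binomial intervals and shares exact Clopper-Pearson intervals, all at 95% and all covering counting error only. With 1 section per genotype no test was possible. Parts were made by median splits of the positions. Squares (side 20 in position units) needed 10 barcodes or more, and tiles (side 100) 200 or more. A marker-rich square was among the richest 5% of its section by the share of counts in a marker list; a compartment was used where its poorest square held at least 5 counts of the list. Likeness between genes is Pearson's r of log2(CPM + 10) over squares of side 40 units with at least 40 barcodes, among genes with at least 2000 counts (500 for the members). Barcodes were thinned to 300 counts (600 as the alternative), with shallower ones left out. No doublet calling was done, since a square or barcode can hold several cells.

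Genes were named by rule: the 5 members, all Sprr relatives, Dpf2, the 5 genes most like a member per section (predicted, ribosomal protein and variable receptor genes left out), and per list the 4 largest ratios among genes with at least 50 counts plus the 2 most abundant. Named outside this rule, after their values were seen, were Ivl, Lor, S100a5, Klf4, Ovol1, the AP-1 genes, Reg3a, Zg16, Mptx1 and Trp63. Of the genes the rule names, 1 is not reported here. The members and lists were chosen with earlier results of these data known. All steps ran in Python 3.11.15 with numpy 2.4.6, scipy 1.17.1, pandas 2.3.3 and matplotlib 3.10.9 and were tested on simulated data. Alternatives varied the scaling, the barcodes and positions used, the size and number of marker-rich squares, the thinning depth and the minimum count.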

Additional observations from a re-analysis of the deposited data

Results flagged for a closer look

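The summed Sprr2a copies stood on opposite sides of the rest of the section in 3 kinds of marker-rich squares. In goblet cell squares the log2 ratio to the rest was -0.45 in the WT section and 0.91 in the KO section, and with list genes weighted equally the former was 0.69. In proliferation squares it was 0.11 and -0.96, and in endothelial squares 0.41 and -0.51. The difference between the sections was not tested, since there is 1 section per genotype.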

How the results depend on the processing

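No paired analysis was possible because there is 1 section per genotype and the labels give no replicate numbers. Counting error is the error given, and neither it nor the position alternatives stand in for animals. Sprr1a (log2 ratios -4.50 to -4.08) and Sprr2f (-9.00 to -7.34) kept their direction and stayed beyond 2-fold under all scaling, barcode and tile alternatives run. The Sprr2a copies kept their direction, but their size moved beyond the counting interval. Scaled by the median of ratios, their sum was at 1.18, Sprr2a1 at 1.18, Sprr2a2 at 1.22 and Sprr2a3 at 1.1. Without Paneth list and Defa genes the values were 0.77, 0.77, 0.80 and 0.69, and in barcodes rich in pan-epithelial counts 0.74, 0.68, 0.80 and 0.68. Without the richest tile of each section the sum was at 0.99 and Sprr2a1 at 0.98.

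Leaving out each part of a section in turn gave log2 ratios of 0.95 to 1.07 for the sum, 0.91 to 1.1 for Sprr2a1, 0.99 to 1.09 for Sprr2a2, 0.87 to 0.98 for Sprr2a3, -4.37 to -4.15 for Sprr1a and -8.73 to -7.12 for Sprr2f. The sum was higher inside 7 of 12 compartments of the WT section, but inside 3 of 5 that could be used with squares of side 10 and 4 of 8 when list genes were weighted equally, and inside 6 of 15 of the KO section, but 10 with side 40, where further lists could be used and 6 of the same 15 were higher. The log2 ratio of the level at 80 to 120 units from muscle to that nearest it went from 1.31 to 0.80 and from 1.32 to 1.15 with side 40.

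With thinning to 600 counts the difference in the share of barcodes (knockout label minus wild-type label) went from 13.6 to 6.20 percentage points for the Sprr2a copies, from -0.97 to -1.81 for Sprr1a and from -0.20 to -0.40 for Sprr2f. Of the 5 genes most like the summed copies 3 were shared with sides of 20 and of 100 in both sections, and of those most like Sprr1a 3 and 2. With a minimum of 50 counts, relatives at least 2-fold lower went from 2 to 1, higher S100 genes from 1 to 0 and higher squamous genes from 2 to 1.

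Compartment ratios that changed sign were, for the summed copies in the WT section, goblet cell (0.69) and plasma cell squares (-0.041) with equal weights, neutrophil squares with side 40 (-0.23) and without injury squares (-0.024), and macrophage squares with the richest 10% (0.042) or 1 threshold for both sections (0.088). In the KO section plasma cell squares did so with side 10 (-0.049) and 1 threshold (-0.014). For Sprr1a they were smooth muscle squares with 1 threshold (1.34), endothelial squares without injury squares (-0.25) and neutrophil squares with side 40 (-0.47) and without injury squares (-0.16). The causes were not tested.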
